A study of Mus musculus with 2 samples.

Results

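The regions described here lay at the ends of long non-coding RNA (lncRNA) genes and away from protein-coding gene ends, in deposited lists of DNA regions recovered with an antibody against the phosphatase PHLPP1. A region was a member when it lay on an autosome, within 1 kb of either end of a gene that RefSeq annotates as lncRNA on the mm10 build, and more than 1 kb from every protein-coding gene end. The untreated list held 4904 members of 165968 regions, and the IL-4 list held 7712 of 226476. On the autosomes the members made up 2.97% and 3.42% of the lists. The rule used position only, so the strength of the regions and their overlap between lists were left free.

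The cells were primary alveolar macrophages of wild-type mice, taken from bronchoalveolar lavage fluid, and the assay was CUT&Tag, which uses an antibody to direct a DNA-cutting transposase to the places where its target sits. The untreated group (UT) received nothing, and the IL-4 group received interleukin-4 at 20 ng/ml for 4 h. Each group was 1 library, so there was no replicate spread and no test between the groups, and every difference below compares 2 libraries. The labels do not say whether cells of several mice were pooled, and no control library or PHLPP1-deficient library was analysed here.

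LncRNA genes are transcribed and often spliced like protein-coding genes, and they yield RNAs without a long reading frame. Some act on neighbouring genes on the same chromosome, some act as scaffolds of nuclear bodies, and others are hosts whose introns carry small nucleolar RNAs (snoRNAs) or microRNAs. PHLPP1 is known for removing phosphate from AKT and other kinases, and IL-4 drives macrophages into the alternatively activated state. A region at a lncRNA end is a place where the antibody recovered DNA, and it does not measure transcription of the gene.

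Against the cell type label, the ends of 10 of 12 alveolar macrophage marker genes were within 1 kb of an untreated region and those of 11 near an IL-4 region, with Chil3 in neither. Over all protein-coding genes the shares were 60.1% and 73.3%. Markers of other lung cells also had such regions: epithelium 2 and then 6 of 6 genes, lymphocytes 1 and then 4 of 6, neutrophils 1 and then 4 of 5, and fibroblasts with endothelium 0 and then 4 of 5. The part of other cells in the results was not tested.

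Promoter sequences of 8 lncRNA genes are printed here because the results turn on 3 features of them: their CpG content, the region that covered them and short sequence motifs. Each runs 5′ to 3′ on the gene's own strand, from 250 bp before the RefSeq start site to 50 bp after it, 300 bp in all, in the GRCm38.p6 assembly behind mm10. In the first 7, capitals mark CpG dinucleotides. The first 5 lay under a region in both lists and hold 30, 24, 29, 18 and 12 CpG. They belong to Chaserr (chr7:73558346-73558645, minus strand), 6430590A07Rik (chr3:40894055-40894354, minus strand), Snhg15 (chr11:6528711-6529010, minus strand), Dancr (chr5:74092810-74093109, plus strand) and Ptgs2os2 (chr1:150164899-150165198, minus strand). The next 2 lay under no region in either list, with 1 CpG at AW112010 (chr19:11050517-11050816, minus strand) and 0 at Mir155hg (chr16:84712773-84713072, plus strand).
Chaserr: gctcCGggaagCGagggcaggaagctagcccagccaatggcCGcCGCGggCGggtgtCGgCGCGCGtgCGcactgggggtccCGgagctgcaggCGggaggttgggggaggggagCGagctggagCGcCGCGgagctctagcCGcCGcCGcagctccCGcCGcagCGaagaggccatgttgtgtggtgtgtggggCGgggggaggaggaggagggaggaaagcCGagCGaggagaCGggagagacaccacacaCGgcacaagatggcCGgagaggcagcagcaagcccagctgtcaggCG
6430590A07Rik: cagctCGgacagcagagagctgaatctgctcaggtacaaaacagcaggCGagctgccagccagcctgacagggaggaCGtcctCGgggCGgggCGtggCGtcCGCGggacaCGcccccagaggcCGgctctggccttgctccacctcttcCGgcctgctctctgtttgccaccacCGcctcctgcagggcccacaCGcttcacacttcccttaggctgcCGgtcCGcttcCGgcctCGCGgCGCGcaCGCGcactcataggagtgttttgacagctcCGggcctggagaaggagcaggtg
Snhg15: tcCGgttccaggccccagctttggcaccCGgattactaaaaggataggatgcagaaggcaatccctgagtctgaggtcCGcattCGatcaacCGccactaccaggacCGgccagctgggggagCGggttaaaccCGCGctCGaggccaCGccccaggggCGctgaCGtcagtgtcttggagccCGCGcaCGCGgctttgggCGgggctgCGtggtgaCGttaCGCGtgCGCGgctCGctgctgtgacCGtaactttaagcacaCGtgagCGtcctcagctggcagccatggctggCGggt
Dancr: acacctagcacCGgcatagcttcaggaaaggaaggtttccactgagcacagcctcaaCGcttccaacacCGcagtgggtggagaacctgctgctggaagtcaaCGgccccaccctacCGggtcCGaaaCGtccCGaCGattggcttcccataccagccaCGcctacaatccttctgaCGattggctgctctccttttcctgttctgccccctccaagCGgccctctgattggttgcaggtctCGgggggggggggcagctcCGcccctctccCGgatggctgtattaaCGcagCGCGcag
Ptgs2os2: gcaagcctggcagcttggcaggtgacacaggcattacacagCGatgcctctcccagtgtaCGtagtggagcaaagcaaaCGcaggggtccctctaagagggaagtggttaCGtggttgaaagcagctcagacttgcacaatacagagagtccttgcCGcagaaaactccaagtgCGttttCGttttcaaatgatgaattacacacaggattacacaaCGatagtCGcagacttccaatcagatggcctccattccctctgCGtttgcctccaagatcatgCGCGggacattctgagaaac
AW112010: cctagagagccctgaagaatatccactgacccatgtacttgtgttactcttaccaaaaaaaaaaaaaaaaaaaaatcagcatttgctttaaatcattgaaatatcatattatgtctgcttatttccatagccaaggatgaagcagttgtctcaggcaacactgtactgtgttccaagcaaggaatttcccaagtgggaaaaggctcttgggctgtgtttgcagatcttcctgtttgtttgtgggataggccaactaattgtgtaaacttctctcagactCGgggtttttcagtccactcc
Mir155hg: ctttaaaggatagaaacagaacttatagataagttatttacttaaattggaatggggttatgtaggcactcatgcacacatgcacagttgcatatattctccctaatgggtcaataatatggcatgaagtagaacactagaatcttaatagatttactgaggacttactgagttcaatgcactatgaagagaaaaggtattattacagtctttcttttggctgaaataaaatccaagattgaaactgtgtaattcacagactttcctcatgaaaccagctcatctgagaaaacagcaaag

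The last promoter is that of Morrbid (chr2:128429302-128429601, minus strand), which lay under a region of the IL-4 list only. Capitals mark 1 match each to GAGGAAGT, TGANTCA and CGGAAG on either strand, core sequences read by the PU.1, AP-1 and ETS families of transcription factors. A match is a description of the letters and does not show that a factor was bound.
Morrbid: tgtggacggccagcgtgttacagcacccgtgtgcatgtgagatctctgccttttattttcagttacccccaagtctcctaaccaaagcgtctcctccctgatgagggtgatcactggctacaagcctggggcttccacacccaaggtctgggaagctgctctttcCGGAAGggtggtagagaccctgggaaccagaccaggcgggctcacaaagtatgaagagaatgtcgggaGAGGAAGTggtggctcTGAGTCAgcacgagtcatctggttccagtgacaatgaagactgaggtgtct

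A member region was found at 4015 of 12408 autosomal lncRNA genes in the untreated list (32.4%, against 45.3% of genes of every biotype and 60.1% of protein-coding genes) and at 5722 with IL-4 (46.1%, against 56.4% and 73.3%). In both lists, 3316 genes were covered (26.7%, interval 25.9 to 27.5). The IL-4 list alone covered 2406 (19.4%, 18.7 to 20.1), the untreated list alone 699 (5.63%, 5.23 to 6.05), and 5987 (48.3%, 47.4 to 49.1) were covered in neither. These are exact binomial (Clopper-Pearson) intervals at 95%, here and throughout, and they cover counting error only. Over 47038 autosomal genes of every biotype, with no condition on protein-coding ends, the shares were 40.6% in both, 15.8% in the IL-4 list alone, 4.74% in the untreated list alone and 38.9% in neither. For lncRNA genes without that condition the untreated and IL-4 lists covered 40.7% and 54.9%. Their shares by class were 35.3%, 19.6%, 5.44% and 39.7%, and for protein-coding genes 56.9%, 16.4%, 3.2% and 23.5%. LncRNA ends thus carried regions less often than protein-coding ends in both libraries, while the share found in the IL-4 list alone lay within a few percentage points for both biotypes.

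**Figure D1:**
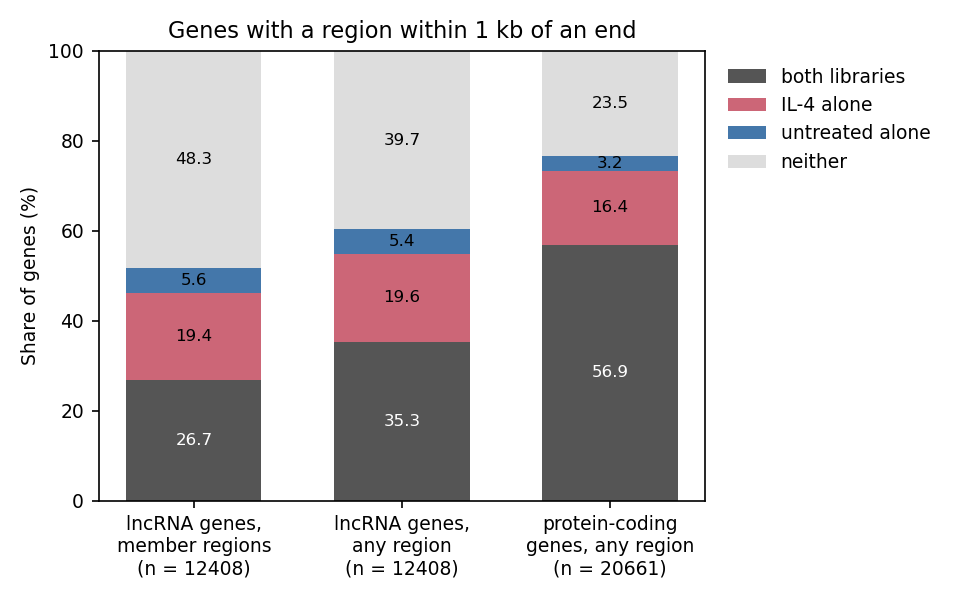
Share of genes (%) with a region within 1 kb of an end in both libraries, in the IL-4 or untreated library alone, or in neither, for lncRNA genes under the member rule (n = 12408), lncRNA genes with any region, and protein-coding genes (n = 20661). The grey part for both libraries was 26.7% under the member rule and 56.9% for protein-coding genes.

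The gap between 2406 and 699 genes depended on how the lists were matched. The IL-4 list was longer, and with each list held to the length of the shorter one by its strongest regions, 1733 genes were covered in the IL-4 list alone and 1076 in the untreated list alone. Counting only regions with a −log10 q of at least 5 left 1617 and 121, and counting only regions of at least 3-fold left 711 and 73. The q-value is the caller's p-value adjusted over its own list, and it moves with the depth of the library. The total read number of each library is not given in the sources used here.

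Of the 5987 genes covered in neither list, 1062 (17.7%) did have a region within 1 kb in at least 1 list, but it lay within 1 kb of a protein-coding end and so was not a member. Another 4925 (82.3%) had no region within 1 kb, and 1524 (25.5%) had none within 5 kb. Both ends of 193 of these genes lay within 1 kb of a protein-coding end, where few members are possible. For 7 of them both ends sat at the very position of a protein-coding end and no member was possible.

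Regions were dense enough that most lncRNA genes lay near one. Of the 2406 genes in the IL-4 list alone, 1649 (68.5%, 66.6 to 70.4) lay within 5 kb of an untreated region, and of the 699 in the untreated list alone, 551 (78.8%, 75.6 to 81.8) lay that near an IL-4 region. Among all lncRNA genes not covered by the list in question the shares were 61.5% for untreated regions and 70.0% for IL-4 regions, and over all lncRNA genes 73.9% and 83.8%. Requiring that no region of the other list lie within 5 kb left 757 genes for IL-4 and 148 for the untreated library. Of the 757, 59 had a region of at least 3-fold and 184 a −log10 q of at least 5. Of the 148, 0 and 1 did. In the full classes, 149 of the 2406 and 4 of the 699 reached 3-fold, and 627 and 25 reached that −log10 q. The difference in strength between the 2 classes was thus there before the 5 kb condition. Of the 148, 55 (37.2%) lay over 100 kb from the nearest protein-coding gene, against 12.02% of the 757, 22.7% and 11.7% of the full classes of 699 and 2406, and 16.6% of all lncRNA genes. The depth, the number of regions called and the treatment moved together between the 2 libraries and cannot be told apart.

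The ends of most member genes carried weak regions, close to the median of each list. Fold here is the authors' own ratio of the fragments stacked at a region's summit to the background that the caller estimated, computed within each library and not scaled between them. The median member fold was 2.21 in both lists, against 2.15 and 2.19 over all autosomal regions of the untreated and IL-4 lists and 2.54 and 2.60 at protein-coding ends. Members of at least 3-fold numbered 580 untreated (11.8%, background 9.08%) and 1266 with IL-4 (16.4%, background 12.9%). A −log10 q of at least 5 was reached by 1046 members untreated (21.3%, background 17.4%) and 2773 with IL-4 (35.96%, background 30.9%). Protein-coding ends reached 3-fold at 35.2% and 40.1% of their regions. The median width of a member was 319.5 bp and 348 bp, against 411 bp and 447 bp at protein-coding ends. Regions at the very limit of the rule were of the same kind. Those exactly 1000 bp from an end had folds of 2.15 at 1700104L18Rik and Gm52101 untreated, and of 2.16 and 2.06 at Gm34616 and Gm40491 with IL-4. Regions 1001 bp away, just outside, had 1.86 and 1.82 untreated and 2.37 and 2.04 with IL-4.

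Most untreated members reappeared in the IL-4 list, and fewer than 1 in 2 IL-4 members had been in the untreated list. Of the 4904 untreated members, 3513 (71.6%, 70.4 to 72.9) shared at least 1 bp with an IL-4 region, against 62.9% of all untreated regions. Of the 7712 IL-4 members, 3556 (46.1%, 45.0 to 47.2) met an untreated region, against 45.6% of all IL-4 regions, so in that direction the members stood near the background. At protein-coding ends the shares were 86.9% and 60.8%. Members that met no region of the other list were weaker at the median. Their median fold was 2.04 untreated and 2.10 with IL-4, against 2.28 and 2.48 for members that met one. Their highest folds were 3.29 and 5.13, against 4.22 and 5.99 over all autosomal regions that met none.

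The start of a lncRNA gene carried regions more often than its 3′ end. The RefSeq promoter table gave a strand for 9291 of the 12408 genes (74.9%), and this comparison covers those only. The 422 lncRNA genes on chromosome 18 are not used here for ends, summits or promoters. In the untreated list, 2053 genes had a member at the 5′ end (22.1%, 21.3 to 23.0) and 1498 at the 3′ end (16.1%, 15.4 to 16.9). With IL-4 the numbers were 3007 (32.4%, 31.4 to 33.3) and 2356 (25.4%, 24.5 to 26.3). Regions at 5′ ends were also stronger, with at least 3-fold at 16.6% of covered 5′ ends and 11.0% of covered 3′ ends in the untreated list, and at 22.1% and 15.3% with IL-4. In genes longer than 5 kb, whose 2 windows cannot share 1 summit, the 5′ shares were 22.0% and 31.6% and the 3′ shares 15.7% and 24.1%.

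Summits gathered in the 100 bp just upstream of the start site. Around 9093 lncRNA start sites more than 3 kb from protein-coding ends, that bin held 2.18 summits per 100 start sites in the untreated list and 3.52 with IL-4. Bins centred beyond 1500 bp held 0.970 and 1.46 on average. The peak over this surrounding level was 2.24 times and 2.41 times, so the profiles had a like shape and differed mainly in level.

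**Figure D2:**
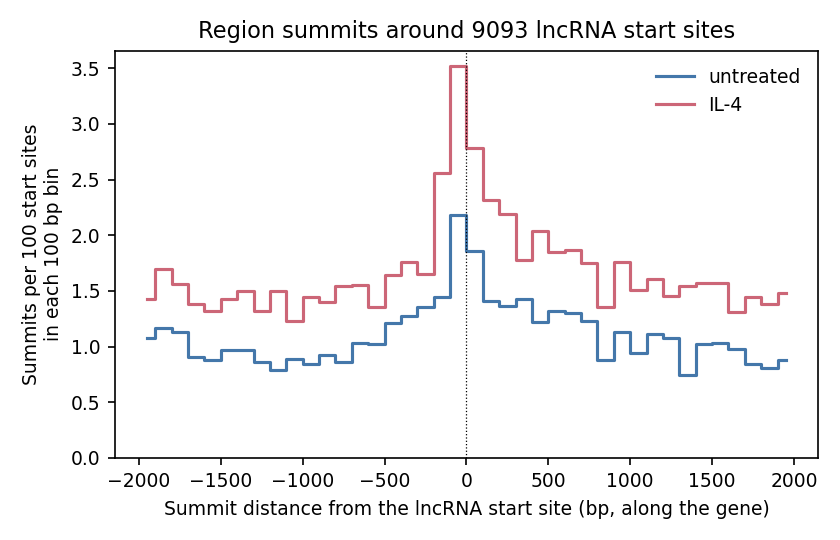
Region summits per 100 lncRNA start sites (y axis) in 100 bp bins of distance from the start site in bp, upstream to the left (x axis), for the untreated and IL-4 lists, over 9093 start sites. Both lines are highest in the bin from -100 to 0, at 2.18 and 3.52.

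LncRNA promoters rich in CpG, the dinucleotide that marks many housekeeping promoters, lay under regions most often. The promoter table covers 74.9% of the lncRNA genes, under the 80% needed to speak for all of them, so a check over lncRNA genes is void and the unit here is the promoter. Among 9782 lncRNA promoters more than 1 kb from protein-coding ends (8046 genes), 1052 (10.8%) lay under an untreated region and 1669 (17.1%) under an IL-4 region, against 44.4% and 54.4% of protein-coding promoters. With 0 to 2 CpG the shares were 6.95% and 11.96%. With 10 to 19 CpG they were 19.6% and 28.0%, and with 20 or more they were 52.9% (47.0 to 58.7) and 61.8% (55.9 to 67.4) of 293 promoters. Fold at the covered promoters was higher too in the last bin, with medians of 3.17 and 3.97 against 2.21 and 2.25 with 0 to 2 CpG. The first 3 printed promoters, of Chaserr, 6430590A07Rik and Snhg15, belong to this CpG-rich class. Dancr and Ptgs2os2 fall in the class of 10 to 19, and AW112010 and Mir155hg are at the poor end.

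**Figure D3:**
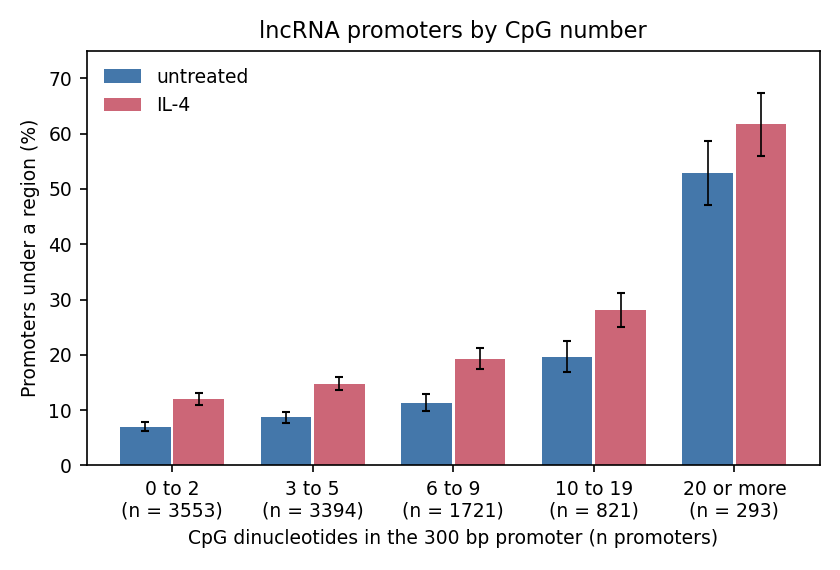
Share of lncRNA promoters under a region (%, y axis) by the number of CpG dinucleotides in the 300 bp promoter (x axis), for both libraries, with exact 95% binomial intervals that cover counting error only. The untreated share goes from 6.95% with 0 to 2 CpG to 52.9% with 20 or more, and the IL-4 share from 11.96% to 61.8%.

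Promoters covered in both lists (821) had a median of 6 CpG and 53.7% GC, those in the IL-4 list alone (848) 4 CpG and 51.0%, those in the untreated list alone (231) 4 CpG and 50.7%, and those in neither (7882) 3 CpG and 46.3%. Motifs were searched as exact letters on both strands, with N for any base, and matches of different motifs may overlap. GGGCGG, the GC box bound by the Sp family, was in 28.9% of promoters covered in both and 8.11% of those in neither, against 35.98% of all promoters of every biotype in the table. TATAAA, the TATA box letters, ran the other way, with 8.77% and 18.1% against 13.6% of all. GC content differed between the classes in the same direction. Among promoters with fewer than 10 CpG, GGGCGG was in 11.8% of those in both (9.21 to 14.8) and 5.95% of those in neither (5.41 to 6.52), and TATAAA in 9.41% and 18.7%. With 10 CpG or more, GGGCGG was in 62.0% and 31.5%, and TATAAA in 7.53% and 11.6%.

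GAGGAAGT, the PU.1 core, was in 6.21% of lncRNA promoters covered in both lists (4.66 to 8.09), 5.66% of those in the IL-4 list alone (4.20 to 7.44), 4.76% of those in the untreated list alone and 2.91% of those in neither (2.55 to 3.30), against 3.25% of all promoters in the table. Among promoters with fewer than 10 CpG the shares were 7.38%, 5.59%, 5.67% and 2.91%. With 10 CpG or more they were 3.94% (1.98 to 6.94), 6.06%, 0% of 37 promoters (up to 9.49%) and 2.85% (1.73 to 4.42), and the intervals of both and neither overlapped. The STAT palindrome, TTC and GAA spaced by 4 bases, was in 7.80% of the promoters covered in both, 8.14% with IL-4 alone, 4.76% untreated alone and 8.60% in neither, against 6.98% of all. With fewer than 10 CpG it was in 9.22% with IL-4 alone (7.20 to 11.6) and 8.83% in neither (8.18 to 9.51), and these intervals overlapped. With 10 CpG or more the shares were 2.27% (0.471 to 6.50) and 6.16% (4.45 to 8.26), and these overlapped too. CGGAAG, the ETS core, was in 12.1%, 8.73%, 4.76% and 6.56% in that order, against 17.01% of all. With fewer than 10 CpG it was in 5.17% of promoters in both and 5.56% in neither. With 10 CpG or more it was in 25.4% (20.4 to 31.0) and 17.4% (14.6 to 20.5), intervals that barely overlapped. TGANTCA was in 9.26%, 9.67%, 9.09% and 10.1%, against 7.84% of all. CCAAT was in 34.8% of promoters in both and 36.5% in neither, CACGTG in 8.40% and 5.07%, and the NRF1 palindrome in 0.487% and 0.101%. Over all promoters of the table these last 3 were in 37.3%, 7.14% and 0.968%.

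Where a gene lay relative to protein-coding genes went with its coverage. Coverage was highest at lncRNA genes lying 10 to 100 kb from the nearest protein-coding gene, with 38.3% untreated and 53.9% with IL-4. Genes within 10 kb, whose windows the rule trims, had 28.4% and 46.0%. Genes inside a protein-coding gene had 33.6% and 48.3%, and the 1782 partly over one had 26.5% and 39.3%. Those more than 100 kb away had 30.1% and 36.1%. The number of genes covered with IL-4 over the number covered untreated was 1.62 within 10 kb and 1.20 beyond 100 kb, so the longer IL-4 list added least in the gene-poor stretches. LncRNA genes with a proper name, neither a Gm, Rik, LOC nor antisense symbol, were covered at 39.1% and 51.7%, against 32.3% and 46.6% of the 9878 Gm genes.

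The strength of regions present in both lists was compared by fragments at the summit, which fold and p-value together determine. The constant background was 13.9 fragments in the untreated library and 15.9 with IL-4, a ratio of 1.14. Across 3410 pairs of a member and the region it overlapped, the median IL-4 over untreated fragment ratio was 1.33 (interquartile range 1.14 to 1.63), or 1.17 after division by the background ratio. After that division 684 pairs (20.1%, background 14.3% of all shared regions) were at least 1.5 times higher with IL-4 and 7 (0.205%, background 0.535%) at least 1.5 times lower. At protein-coding ends 34.5% were that much higher. Members of at least 4-fold in the untreated list had a median ratio of 1.57, those of 3-fold to 4-fold 1.46, those of 2-fold to 3-fold 1.27 and those under 2-fold 1.41. Over all autosomal regions the same classes had 1.54, 1.39, 1.21 and 1.36. Only regions called in both lists enter these ratios, and whether the background ratio is the right scale between the libraries was not tested.

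**Figure D4:**
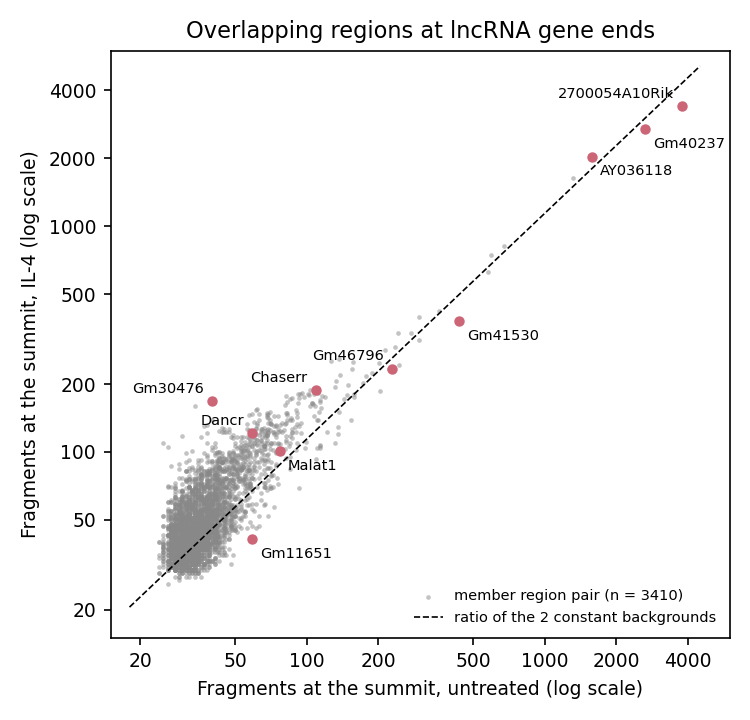
Fragments at the summit in the untreated library (x axis) and the IL-4 library (y axis), both on log scales, for 3410 pairs of overlapping regions at lncRNA ends; the dashed line is the ratio of the 2 constant backgrounds, 1.14. Gm30476, Chaserr and Dancr lie above the line, and Gm41530, Gm40237 and Gm11651 below it.

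The strongest member regions were at genes known only by number. Gm41530 (chr17:13655846-13665688), 50.7 kb from the nearest protein-coding gene, had 437 fragments untreated and 381 with IL-4, at 15.6-fold and 14.6-fold. Gm46796 on chromosome 3, 499 kb from any protein-coding gene, had 228 and 234 fragments at 15.4-fold and 13.9-fold. Gm40237 on chromosome 4 had 2635 and 2696 fragments at 12.3-fold and 12.04-fold, on a local background 15.3 and 14.1 times the constant one. At these 3 loci the IL-4 count divided by the untreated count was 0.872 (0.758 to 1.00), 1.03 (0.852 to 1.24) and 1.02 (0.969 to 1.08). The intervals of Gm41530 and Gm40237 lay below the background ratio and that of Gm46796 held it.

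The other 7 of the 10 genes strongest with IL-4 were chosen by their IL-4 fold, which favours genes with more fragments in that library, so their direction is a description. Chaserr, a lncRNA next to Chd2 that restrains the output of that chromatin remodeller gene, had 109 fragments untreated and 188 with IL-4 (7.38-fold and 10.9-fold). Their ratio was 1.72 (1.36 to 2.204), and the whole interval lay above 1.14. The summits were at position -297 and -307 from the start site, upstream of the printed sequence, while the regions covered all 300 bases of it. 6430590A07Rik had 131 and 194 fragments, with summits at -55 and -46, inside the printed sequence. D130051D11Rik had 137 and 257 fragments, and Gm33424, 3.09 kb from Nfil3, had 87 and 174. Gm52285 had 97 and 175, 1700028E10Rik 105 and 165, and Gm51663 148 and 179. Of these 7, only Gm51663 had an interval that held the background ratio, with a ratio of 1.21 (0.967 to 1.51). Ranked by untreated fold, the first 10 also held Gm51701 (204 and 187 fragments), Gm41236 (149 and 198), 1700096K18Rik (156 and 251) and 2700054A10Rik (3782 and 3407). Of these 4, only 1700096K18Rik had an interval above the background ratio, while that of Gm41236 held it and those of Gm51701 and 2700054A10Rik lay below it.

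Over all 2478 genes whose strongest regions in the 2 lists overlapped, the median ratio was 1.36, with 550 (22.2%) at least 1.5 times above the background ratio and 3 (0.121%) as far below it. The extremes were single loci chosen by their values. Gm30476 had 40 fragments untreated and 168 with IL-4, a ratio of 4.20 (2.96 to 6.09). Gm38293 had 36 and 117, and Platr29 had 31 and 99. At the low end Gm11651 had 59 and 41, a ratio of 0.695 (0.455 to 1.05).

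In the list of immune and macrophage lncRNAs, 17 of the 26 that matched the annotation were covered untreated and 20 with IL-4. These are 65.4% (44.3 to 82.8) and 76.9% (56.4 to 91.0), against 32.4% and 46.1% of all lncRNA genes. In both lists were 16, in IL-4 alone 4, in untreated alone 1 and in neither 5, of which 3 had regions that failed the rule. The median fold of those covered was 2.73 and 2.95, against 2.25 and 2.31 over all covered lncRNA genes. The members of this list are named, studied lncRNAs, and expression was not measured here. Their coverage thus describes the list and is not set against lncRNA genes of like expression. The list shares genes with the snoRNA host, microRNA host and nuclear lists below, among them Dancr, Mir22hg and Malat1, so the lists are not independent.

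Ptgs2os2, also called lincRNA-Cox2, a regulator of inflammatory genes 50.8 kb from Ptgs2, had 67 fragments untreated and 121 with IL-4 (4.56-fold and 7.23-fold, ratio 1.81, 1.33 to 2.47). The region covered all of its printed promoter in both lists, with summits at -141 and -130. Mir22hg, the host of miR-22, had 138 and 220 fragments at 6.82-fold and 7.31-fold. Dleu2, the host of miR-15a and miR-16-1, had 83 and 146 at 5.30-fold and 6.01-fold. The intervals of all 3 lay above the background ratio. Ptgs2os2 was named for its high fold, and its IL-4 fold was the higher, so its direction is a description.

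Malat1, a nuclear speckle RNA, had 77 fragments untreated and 101 with IL-4 (5.23-fold and 5.12-fold), a ratio of 1.31 (0.965 to 1.79) that held the background ratio. Neat1, the scaffold of paraspeckles, lay next to it and had 89 and 129 (2.73-fold and 2.92-fold), with a ratio of 1.45 (1.098 to 1.92) that also held it. Oip5os1, known as Cyrano, had 31 and 48, and Pvt1, the neighbour of Myc, 34 and 42. All 4 genes were covered in both lists, and the interval of each held the background ratio. With a −log10 q of at least 5, Oip5os1 and Pvt1 were covered with IL-4 alone.

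Morrbid, which in myeloid cells controls the pro-apoptotic gene Bcl2l11, was covered by 2 regions in each list, and the strongest of each did not overlap. The strongest untreated region had 35 fragments (2.41-fold) and lay within the gene, 252 bp from its 5′ end. The strongest IL-4 region had 59 fragments (2.98-fold) with its summit at -148, and covered all 300 bases of the printed promoter and its 3 marked motifs. The 2 regions were close neighbours, the untreated one ending at position 128429099 and the IL-4 one starting at 128429160. No untreated region reached the printed sequence, so Morrbid counts as covered in both by gene and with IL-4 alone by promoter. With a −log10 q of at least 5 the gene too was covered with IL-4 alone.

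AW112010, a myeloid transcript induced in inflammation that encodes a small protein, had a region of 42 fragments (2.55-fold) with IL-4 and none untreated, although an untreated region of 2.55-fold lay 2181 bp away. The IL-4 region was 472 bp from the lower-coordinate end, the 3′ end of this minus-strand gene, and its CpG-poor promoter lay under no region. Hotairm1, a myeloid lncRNA of the HoxA cluster, had 54 fragments (3.26-fold) with IL-4, and the nearest untreated region was 34535 bp away. Mir155hg, the host of miR-155, had an untreated region of 29 fragments (2.01-fold) 960 bp from its 3′ end. The nearest IL-4 region was 4066 bp away. Of these 3, Mir155hg lost its region when a −log10 q of at least 5 was required.

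Gas5, Tug1, Zfas1 and Ptgs2os show what the rule leaves out. Gas5, a snoRNA host, had regions of 4.96-fold and 7.27-fold that also lay within 1 kb of a protein-coding end, next to Zbtb37. Zfas1, the snoRNA host beside Znfx1, had 3.69-fold and 4.40-fold, and Tug1, beside Morc2a, 2.68-fold and 3.79-fold. Ptgs2os, which lies 157 bp from Ptgs2, had 1.88-fold and 2.61-fold. All 4 count as covered in neither list, and with a 2 kb window Gas5 was covered in both lists and Zfas1 in 1. Mir17hg, the host of the miR-17-92 cluster, was covered in neither for distance, with regions of 3.49-fold and 3.44-fold 1750 bp and 1787 bp from its end.

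Hosts of snoRNAs, which keep small RNAs for ribosome assembly in their introns, were covered at 12 of 21 genes untreated (57.1%, 34.0 to 78.2). With IL-4, 16 were covered (76.2%, 52.8 to 91.8). The shares of all lncRNA genes were 32.4% and 46.1%. All 12 were covered in both, 4 in IL-4 alone and 5 in neither, of which 4 had regions that failed the rule. Median fold was 3.08 and 4.13, above the 2.25 and 2.31 of all covered lncRNA genes. At all 12 the fragment ratio was above the background ratio, as at 77.4% of all lncRNA genes with overlapping regions, and at 6 it was at least 1.5 times above it. The median ratio was 1.66, against 1.36 over all. Stronger regions had higher ratios elsewhere too. By pairs of regions the median was 1.46 for members of 3-fold to 4-fold untreated and 1.57 for those of at least 4-fold. At protein-coding ends it was 1.56 over all pairs and 1.64 at 3-fold to 4-fold, so such a ratio was not particular to these hosts. The immune list was alike, at 12 of 12 genes with overlapping regions, with 6 at least 1.5 times above and a median of 1.67. So were the microRNA host (4 of 4), imprinted (3 of 3) and nuclear (8 of 8) lists, and these lists share genes. In the development and brain list it was 4 of 5, with a median of 1.24. Genes covered in both whose strongest regions did not overlap are left out of these counts. Those counted were 12 of 16 immune genes covered in both and 4 of 7 microRNA hosts. They were 3 of 6 imprinted genes and 5 of 7 genes of the development and brain list.

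Dancr had 59 fragments untreated and 121 with IL-4 (4.02-fold and 7.23-fold, ratio 2.05, 1.49 to 2.85), with summits at -55 and -84 inside its printed promoter. Snhg15 had 50 and 109 (3.42-fold and 6.52-fold, ratio 2.18, 1.55 to 3.11), with summits at -117 and -72. Both intervals lay wholly above the background ratio. Snhg8 had 106 and 163 fragments at 6.51-fold and 7.69-fold, Epb41l4aos 82 and 111 at 5.57-fold and 6.64-fold, and Snhg5 55 and 78 at 3.75-fold and 4.68-fold. The interval of Snhg8 lay above the background ratio, and those of Epb41l4aos and Snhg5 held it. Snhg15, Snhg8 and Epb41l4aos were named for their high folds. Their IL-4 folds were the higher, which favours genes with more fragments in that library, so their direction is a description. Snhg12 was covered with IL-4 alone, by 58 fragments at 3.50-fold, with no untreated region within 5 kb.

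**Figure D5:**
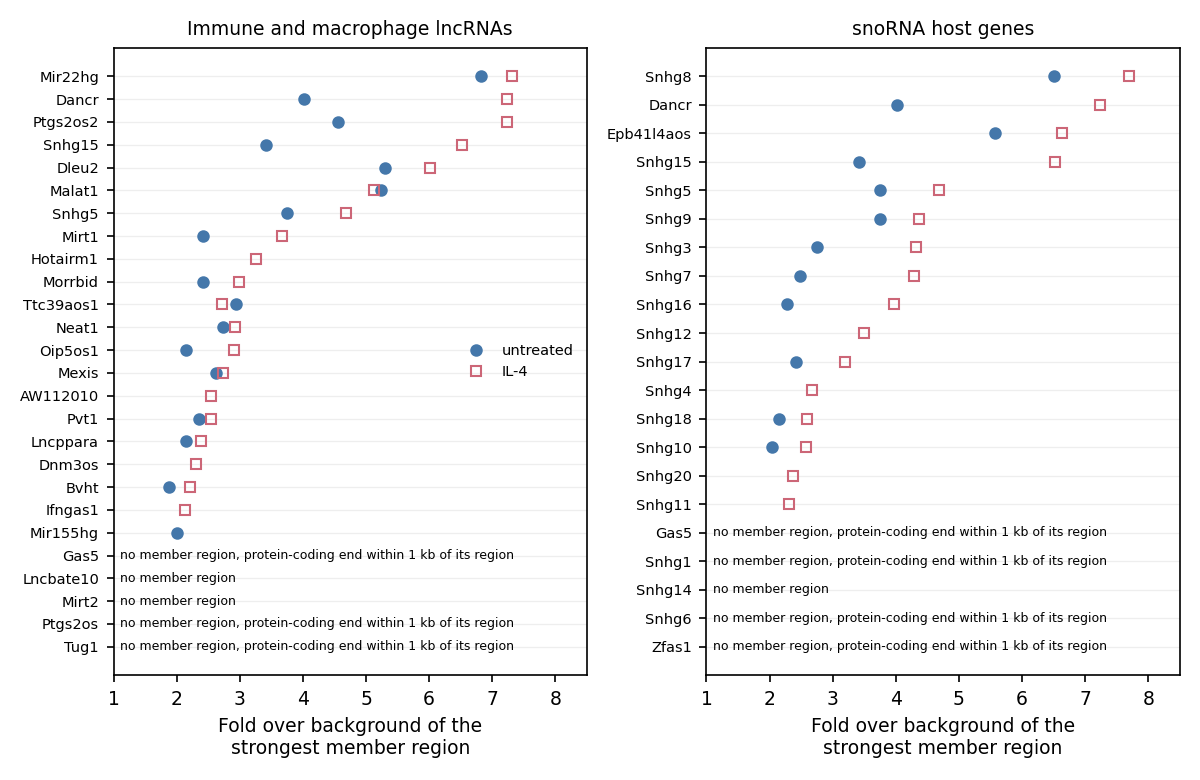
Fold over background of the strongest member region (x axis, each library against its own background) for each gene of the immune list and the snoRNA host list, in the untreated and IL-4 lists; text marks genes with no member. Ptgs2os2 and Dancr are at 7.23-fold with IL-4, and Hotairm1 has an IL-4 value only.

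The hosts of microRNAs were covered at 9 of 18 genes untreated (50%, 26.0 to 74.0) and 11 with IL-4 (61.1%, 35.7 to 82.7). Both intervals held the shares of all lncRNA genes, 32.4% and 46.1%. In both lists were 7, in IL-4 alone 4, in untreated alone 2 and in neither 5. Beyond Mir22hg and Dleu2 the regions were weak. Carmn, the host of miR-143 and miR-145, had 39 and 65 fragments, and Lncppara, the host of a let-7 microRNA, 42 and 76. The ratio at Lncppara was 1.81 (1.23 to 2.70), above the background ratio, and that at Carmn held it. Both were named for their fold, so their direction is a description. With a −log10 q of at least 5 both were covered with IL-4 alone. The median fold of the list was 2.14 and 2.25.

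Imprinted lncRNAs, which are transcribed from 1 parental allele, were covered at 6 of 11 genes untreated (54.5%, 23.4 to 83.3) and 8 with IL-4 (72.7%, 39.0 to 94.0). Both intervals held the shares of all lncRNA genes, 32.4% and 46.1%. In both lists were 6, in IL-4 alone 2 and in neither 3. Kcnq1ot1, which silences its neighbours on the paternal chromosome, had 51 and 92 fragments at 3.49-fold and 4.57-fold. Peg13 had 46 and 69, and Rian 29 and 41. Meg3 and H19 were each covered in both lists by weak regions, and the strongest region of each list lay at different ends, with 33 and 32 fragments at Meg3 and 36 and 44 at H19. At the end that both lists covered, Meg3 had 33 and 41 fragments and H19 had 30 and 44. Meg3, H19 and Rian had no region with a −log10 q of at least 5 in either list.

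Nuclear and broadly expressed lncRNAs, a list that shares Dancr, Malat1, Neat1 and others with those above, were covered at 8 of 16 genes untreated (50%, 24.7 to 75.3). With IL-4, 11 were covered (68.8%, 41.3 to 89.0). Both intervals held the shares of all lncRNA genes, 32.4% and 46.1%. In both were 8, in IL-4 alone 3 and in neither 5, of which 3 had regions that failed the rule. Norad, an RNA that binds Pumilio proteins, had 35 and 54 fragments. LncRNAs of development and brain, mostly known from the embryo and nervous system, were covered at 9 of 34 genes untreated (26.5%, 12.9 to 44.4). With IL-4, 17 were covered (50%, 32.4 to 67.6). Both intervals held the shares of all lncRNA genes. In both were 7, in IL-4 alone 10, in untreated alone 2 and in neither 15. The highest fold in that list was 2.68 untreated and 3.26 with IL-4. None of its 5 genes with overlapping regions was 1.5 times above the background ratio, against 22.2% of all such lncRNA genes. With 5 genes this does not set the list apart. Zeb2os, antisense to Zeb2, had an IL-4 region of 49 fragments, and Tunar had 40 and 55. With a −log10 q of at least 5 Tunar was covered with IL-4 alone.

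The strongest genes of the IL-4 list alone were close calls of distance. Gm40151 had 135 fragments (7.26-fold) in a region 909 bp from its end, and the untreated list had a region of 3.82-fold at 1192 bp. Gm3775 had 117 fragments at 984 bp, with an untreated region of 3.82-fold at 1237 bp. Gm41953 had an IL-4 region at 967 bp and an untreated one at 1082 bp, Gm52681 at 923 and 1159 bp, and Gm30232 at 881 and 1039 bp. At Gm38972 the IL-4 member lay 965 bp from the lower-coordinate end. At the other end both lists had a region, of 5.76-fold untreated and 5.29-fold with IL-4, within 1 kb of a protein-coding end. The 6 strongest genes of this class were therefore all near an untreated region, and with a 2 kb window all 6 were covered in both lists.

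The strongest genes of the untreated list alone were also close calls. Gm35248 had 89 fragments (4.58-fold) and Gm51797 had 48 (3.17-fold), and IL-4 regions of 4.47-fold and 3.49-fold lay within 1 kb of them but also within 1 kb of a protein-coding end. Gm30145 had 44 fragments, with an IL-4 region of 4.03-fold at 1133 bp. Gm6117 had 43, with an IL-4 region at 1111 bp, Gm5485 had 44, with one at 1980 bp, and Gm20098 had 42, with one at 2372 bp.

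With no region of the other list within 5 kb, the IL-4 class was led by Gm3596 (76 fragments, 4.57-fold, within Rad51b), Gm15537 (73 fragments, 4.39-fold, over Cluap1) and Gm30527 (73 fragments, 4.23-fold, 1.13 kb from Pick1). Gm34041, 8.32 kb from Rag1, had 58. The untreated class was led by LOC115487814 with 39 fragments (2.68-fold), followed by Gm38407 and Gm41277 with 38 each. These genes were picked by their values after the 5 kb condition was added. The untreated class reached at most 39 fragments, and the IL-4 class reached 76.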

How the data were processed

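The 2 CUT&Tag libraries (antibody to PHLPP1, untreated and IL-4) came as 1 region list each, in narrowPeak order. Per the submitters' processing notes, the tools were MACS2 2.2.7.1, Bowtie 0.12.8 and DiffBind and the build mm10, with no roles stated. Settings, filters and any control are not given in the sources used here. For each region the deposited lists give the authors' fold ratio at the summit, −log10 p, −log10 q, a whole-number score that is 10 times the −log10 p, and the summit offset. These deposited −log10 values and the ratio refer to each library's own background and move with its depth, which the files do not state.

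Gene ends and biotypes came from RefSeq GRCm38.p6, and distance was the gap in bp between a region and an end. Fragments at the summit were solved from fold and p, assuming the caller adds 1 to both sides of the ratio. Within 0.05, 100% came out whole. An overlap needed 1 bp. Ratios of fragment counts have exact binomial intervals conditional on their sum, at 95%, for counting error only. Python 3.11.15, numpy 2.4.6, pandas 2.3.3, scipy 1.17.1 and matplotlib 3.10.9 were used, and the overlap and solving steps were tested on simulated data.

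The members and gene lists were chosen with earlier results of these data known. Named genes were 20 listed ones, the 10 shared genes with the highest IL-4 fold and the 6 strongest in each list alone. To these came up to 4 covered genes of highest fold per gene list, and regions at the 1 kb limit. A choice by fold where the IL-4 fold is the higher favours genes with more fragments in that library. Gm30476, Gm38293, Platr29, Gm11651, Norad, Snhg12, the genes with no other region within 5 kb and those of high local background or highest untreated fold were added after their values were seen. With 1 library per group no test was made.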

Additional observations from a re-analysis of the deposited data

How the results depend on the processing

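Of 66 values recomputed under alternatives, 36 stayed within 1.5 times the main count (or within its interval) and 30 moved. With −log10 q of at least 5, 884 lncRNA genes were covered in both lists, 121 in the untreated list alone and 9786 in neither, from 1046 untreated and 2773 IL-4 members. At 3-fold or more there were 501 in both, 711 in IL-4 alone, 73 in untreated alone and 11123 in neither, from 580 and 1266 members. With lists of equal length, 1076 were in untreated alone. A 500 bp window gave 2092 in both from 2948 and 4684 members, and a 2 kb window 5185 from 8361 and 13232. Leaving out lncRNA genes that lie over protein-coding genes gave 2176 in both, 1533 in IL-4 alone, 452 in untreated alone and 3745 in neither, from 3196 and 4983 members, because fewer genes entered. Requiring no region of the other list within 5 kb, chosen after seeing the data, gave 757 and 148. The overlapped share of untreated members was 65.9% when at least 50% of the region had to be covered and 97.1% at −log10 q of at least 5, and for IL-4 members 38.1% and 70.9%. In these settings the cause was not tested beyond their own construction. The protein-coding limit at 5 kb or dropped, summits in place of regions, and adding X and Y moved none of the 6 counts by over 1.5 times. Of 53 named genes, 11 changed class at −log10 q of at least 5 and 12 with the 2 kb window. Genes in IL-4 alone outnumbered those in untreated alone in every alternative above that gives both. No paired analysis was possible because each group is 1 library and shares no pair of replicate numbers. Depth is not stated, so a missing region may be one not detectable at that depth.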

Other observations

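The change in lncRNA coverage between the lists differed by chromosome. The number of lncRNA genes covered with IL-4 over the number covered untreated was 1.97 on chromosome 11 and 1.89 on chromosome 19, against 1.20 on chromosome 14. The ratio of all regions on those chromosomes was 1.85, 2.11 and 1.23.

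At 4 lncRNA genes the local background was at least 10 times the constant one. AY036118 on chromosome 17 had 1578 fragments untreated and 2034 with IL-4 at 2.57-fold and 2.73-fold, on backgrounds 44.0 and 46.8 times the constant. At 2700054A10Rik on the same chromosome the values were 3782 and 3407 fragments at 8.27-fold and 8.64-fold. Gm33862 on chromosome 11 had 678 and 818 at 1.52-fold and 1.59-fold. Gm40237 is the other of the 4. The part of this high local background in the folds was not tested.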
